A study of Homo sapiens with 4 samples.

Results

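Complement C3 and 8 further complement genes (C5, C1R, C1S, SERPING1, CFI, CD46, CD55 and CD59) were followed in HUES8, a human embryonic stem cell line. The 9 genes were taken by symbol from a table of 59050 genes. C3 was chosen by its fold change and adjusted p in an earlier fit of the same table, where it had been called lower, and the other 8 were added as its partners and regulators with those results known. Differences of the 9 genes between the groups are therefore given as a description, with no test. RNA-seq was done on 4 libraries, 2 labelled CPT2 KO and 2 labelled WT by genotype, and all 4 carry the same treatment label, WT. All were of undifferentiated cells grown in mTeSR1 medium on Matrigel. CPT2, carnitine palmitoyltransferase 2, moves fatty acyl groups from carnitine back to coenzyme A in mitochondria, so that they can be oxidised. The study's title names fatty acid synthesis and oxidation and the nuclear localisation of SMAD3 in endoderm differentiation. How the knockout was made, and whether the cells labelled CPT2 KO are 1 clone, is not given in the sources used here, nor is whether replicates came from separate cultures. A p-value here therefore refers only to the spread among the 4 libraries, which may be technical.

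Complement is a cascade of proteases and binding proteins that tags cells for clearance and can pierce their membranes. C1r and C1s start the classical pathway, every pathway meets at C3, and cleavage of C5 opens the terminal pathway that builds the membrane attack complex. Host cells are shielded by soluble inhibitors, such as C1 inhibitor and factor I, and by CD46, CD55 and CD59 on their surface. The liver secretes most C3 of plasma, and many other cell types make it locally.

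The libraries labelled CPT2 KO held 20219396 and 16887789 counts and those labelled WT 18356754 and 20460031, and a single read moved a level by 0.0485 to 0.0603 CPM (counts per 1000000 of the TMM-scaled library size). The CPT2 transcript went against the labels, with 233 and 170 counts in the libraries labelled CPT2 KO and 52 and 72 in those labelled WT (log2 fold change 1.78, edgeR adjusted p = 0.0218). Without replicate 1 labelled CPT2 KO the edgeR adjusted p was 0.250, and without replicate 2 of that group it was 0.0663. CPT2 shares 1151 exon bases with AL606760.2 and 99 with C1orf123, both on the other strand, so its reads are uncertain. How the knockout would show in this transcript is not given in the sources used here. Every difference given here is one between libraries as labelled. Replicate 1 labelled WT stood apart: its chi-square per degree of freedom against the other 3 libraries was 39.6 to 53.3, and it was 10.5 to 12.6 among those 3. All 8 pluripotency markers listed were tested, edgeR and DESeq2 called 0 of them, and 1, TDGF1, had an unadjusted p under 0.05. The log2 fold change was positive for 7 of the 8 and negative for 1, LIN28A. POU5F1, NANOG, SOX2, TDGF1 and DPPA4 were higher in both libraries labelled CPT2 KO than in either labelled WT, as were 21.1% of all tested genes. The other markers overlapped between the groups. The summed level of the 8 markers was 9215 and 10398 CPM in the libraries labelled CPT2 KO and 8482 and 9303 CPM in those labelled WT.

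C3 transcripts were lower in both libraries labelled CPT2 KO than in both labelled WT. C3, the central component whose cleavage product binds covalently to targets, had 182 and 140 counts in replicates 1 and 2 labelled CPT2 KO, against 630 and 438 in replicates 1 and 2 labelled WT. This was 9.01 and 8.44 CPM in the libraries labelled CPT2 KO (95% exact binomial intervals 7.75 to 10.4 and 7.10 to 9.95), against 34.1 and 21.3 CPM in those labelled WT (31.5 to 36.9 and 19.3 to 23.3). The groups did not overlap, and the lowest library labelled WT stood 2.36-fold above the highest labelled CPT2 KO. These intervals cover counting error only. The replicates labelled CPT2 KO differed by 1.07-fold and those labelled WT by 1.61-fold, replicate 1 being the higher. C3 averaged 8.72 ± 0.405 CPM in libraries labelled CPT2 KO and 27.7 ± 9.11 CPM in libraries labelled WT (SD, n = 2 each). The fitted log2 fold change, CPT2 KO over WT by label, was -1.66 (SE 0.25), a level 68.4% lower. The adjusted p that chose it was 0.0198 in the edgeR quasi-likelihood test. Among lower genes the largest adjusted p inside the threshold of 0.05 was 0.0467, and the smallest outside it was 0.0515. Fewer cells with C3 transcripts and less C3 RNA per cell cannot be told apart in such bulk libraries.

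**Figure D1:**
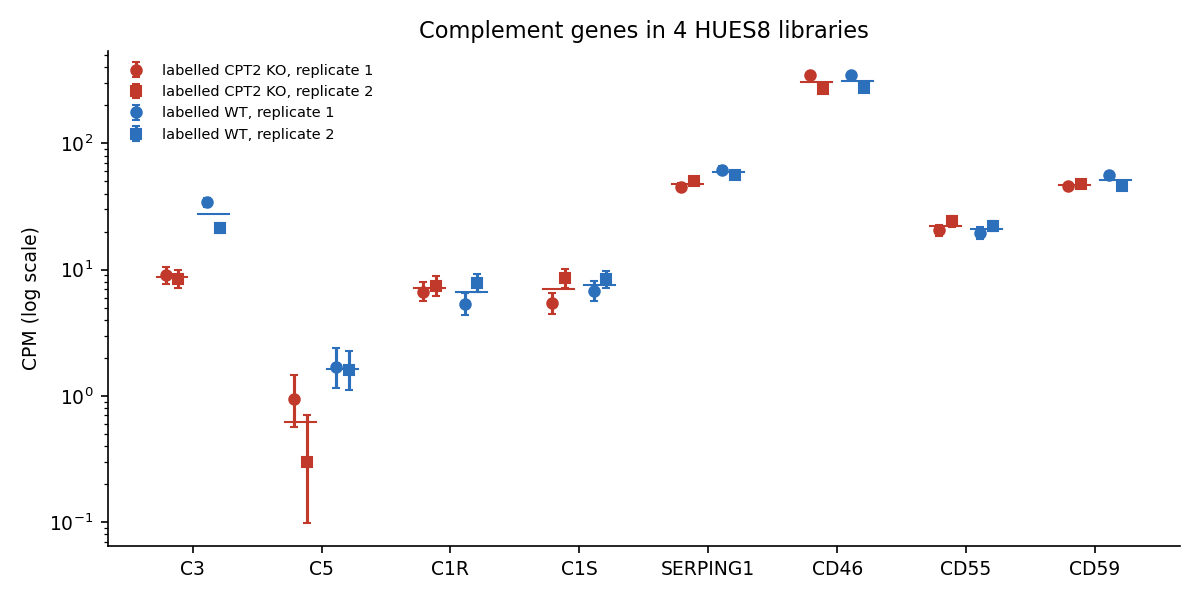
CPM on a log axis of 8 complement genes in 4 libraries, red for those labelled CPT2 KO and blue for those labelled WT, with circles for replicate 1, squares for replicate 2, exact 95% counting intervals as bars and the group mean as a line. C3 lies at 9.01 and 8.44 CPM in the libraries labelled CPT2 KO and at 34.1 and 21.3 CPM in those labelled WT, while 5 of the other genes overlap between the groups.

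C3 lies on chromosome 19 at 6677704 to 6730562 (GRCh38, minus strand, protein coding). It shares no exon bases with another gene of GENCODE 29, but its span overlaps that of GPR108 (6729914 to 6737603, minus strand). C3 had the largest fitted fold change of the 8 tested members, and 93 of 17564 tested genes had a log2 fold change as low or lower. Without replicate 1 labelled CPT2 KO the log2 fold change was -1.71 (edgeR adjusted p = 0.202), and without replicate 2 of that group it was -1.62 (0.131). Leaving out replicate 1 labelled WT, the library that stood apart, gave -1.28, and leaving out replicate 2 labelled WT gave -1.96. Each such fit leaves 1 library in a group, which is assumed to vary like the others. All 13 alternatives gave a lower level. Those that keep all libraries had adjusted p values of 1.58e-06 (DESeq2) to 0.0387 (limma-voom).

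**Figure D2:**
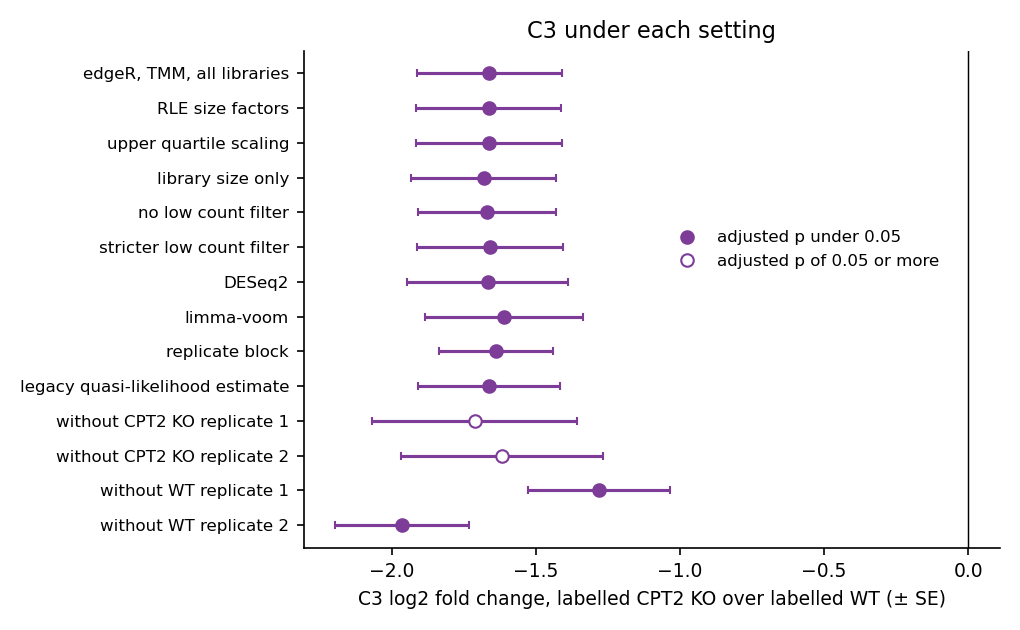
Log2 fold change of C3 (± SE) between libraries labelled CPT2 KO and WT under the analysis as reported and 13 alternatives, filled where the adjusted p is under 0.05. The values run from -1.96 to -1.28, and the open points are those without replicate 1 or replicate 2 labelled CPT2 KO.

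Of the 9 genes, 8 passed the filter on low counts, and 1 of these, C3, was called at an adjusted p under 0.05. Over all 17564 tested genes, 0.416% were called, 0.0569% lower and 0.359% higher. C3, C5 and SERPING1 had lower levels in both libraries labelled CPT2 KO than in either labelled WT, whereas 19.8% of all tested genes were apart and lower in this way and 21.1% apart and higher. The median log2 fold change was -0.13 over the 8 tested genes and 0.0017 over all tested genes. It was negative for 6 of the 8 and positive for CD55 and C1R. C3 and C5 had a log2 fold change of -1 or below, as did 2.41% of all tested genes. C3 chose the set, so these counts are a description and nothing is read from them.

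C5, whose cleavage releases the anaphylatoxin C5a, was near the limit of detection. It had 19 and 5 counts in the libraries labelled CPT2 KO and 31 and 33 in those labelled WT, or 0.940 and 0.301 CPM against 1.68 and 1.602 CPM. Replicate 2 labelled CPT2 KO was the lowest, 3.12-fold below replicate 1, and the counting intervals of replicate 1 labelled CPT2 KO (0.566 to 1.47 CPM) and replicate 1 labelled WT (1.14 to 2.38 CPM) overlapped. The log2 fold change was -1.33 (SE 0.56). Over the alternatives it ran from -2.42 to -0.80, lowest without replicate 1 labelled CPT2 KO, and C5 was called in 0 of 13.

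C1R and C1S encode the protease pair that C1q activates, and they lie beside each other on chromosome 12. C1R had 6.68 and 7.47 CPM in libraries labelled CPT2 KO and 5.37 and 7.86 CPM in libraries labelled WT. C1S had 5.44 and 8.50 CPM in libraries labelled CPT2 KO and 6.78 and 8.40 CPM in libraries labelled WT. For both genes the groups overlapped, with replicate 1 below replicate 2 in each group. The log2 fold changes were 0.088 (SE 0.28) for C1R and -0.14 (SE 0.29) for C1S, each within 1 SE of 0. Of the reads of the pair, C1R took 55.1% and 46.8% in libraries labelled CPT2 KO (exact binomial intervals 48.6% to 61.4% and 40.66% to 52.996%) and 44.2% and 48.4% in libraries labelled WT (37.6% to 51.0% and 42.9% to 53.9%). These shares overlapped between the groups. C1R shares 672 exon bases with C1RL and C1S 229 with EMG1, so some of their reads may belong to those neighbours.

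Levels between genes were compared per length, as CPM per kilobase of the deposited gene length. That length covers all exons of a gene and can exceed its main transcript, so these levels may be understated. Of the 4 components C3, C5, C1R and C1S, C3 made up 33.6% and 27.7% of the summed CPM per kilobase in libraries labelled CPT2 KO and 64.8% and 46.8% in libraries labelled WT. C3 stood at 1.08 and 1.01 CPM per kilobase in libraries labelled CPT2 KO, close to C1R at 1.15 and 1.29 and C1S at 0.843 and 1.31. It was the highest of the 4 in the libraries labelled WT, at 4.10 and 2.55 CPM per kilobase, against 0.925 and 1.36 for C1R. By level per length C3 ranked above 28.3% and 27.7% of tested genes in libraries labelled CPT2 KO and above 54.0% and 44.4% in libraries labelled WT. C5 was the lowest of the components in every library.

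**Figure D3:**
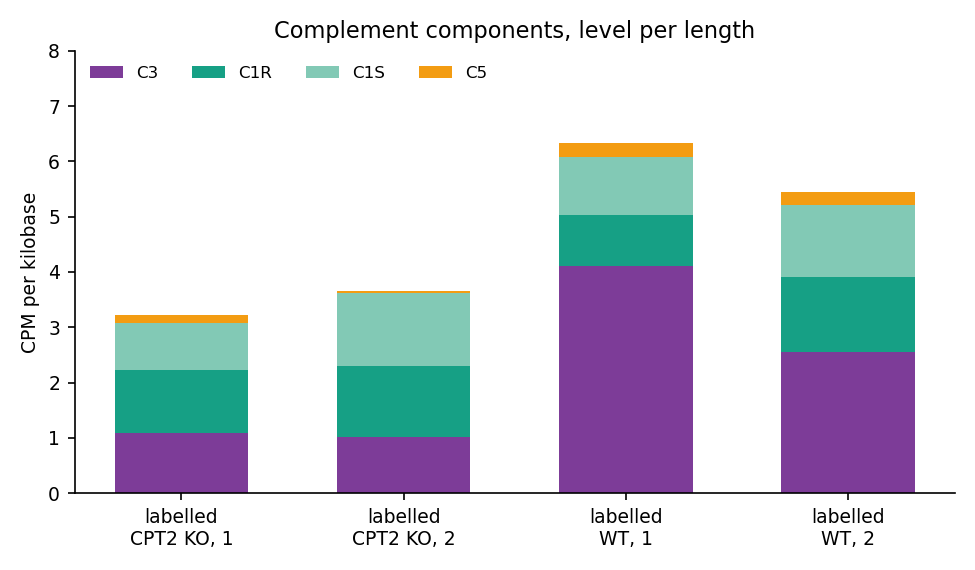
Stacked bars of CPM per kilobase of C3, C1R, C1S and C5 in the libraries labelled CPT2 KO (left) and WT (right), starting at 0. The C3 segment is 1.08 and 1.01 in the libraries labelled CPT2 KO and 4.10 and 2.55 in those labelled WT, and the C1R and C1S segments overlap between the groups.

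SERPING1, which encodes C1 inhibitor, the serpin that inactivates C1r, C1s and the lectin pathway proteases, was the main soluble regulator among the 9 genes. It had 45.3 and 50.3 CPM in libraries labelled CPT2 KO and 62.0 and 56.2 CPM in libraries labelled WT. The groups were apart by a small margin, the lowest library labelled WT being 1.12-fold above the highest labelled CPT2 KO, and replicates differed by 1.11-fold labelled CPT2 KO and 1.10-fold labelled WT. SERPING1 averaged 47.8 ± 3.48 CPM in libraries labelled CPT2 KO and 59.1 ± 4.10 CPM in libraries labelled WT (SD, n = 2 each), a log2 fold change of -0.31 (SE 0.15). This ran from -0.38 to -0.23 over 13 alternatives, with 0 calls. Per length, SERPING1 was 6.31 and 5.36 times the sum of its targets C1R and C1S in libraries labelled CPT2 KO and 8.71 and 5.87 times in libraries labelled WT, which overlap.

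CFI, factor I, is the protease that cuts C3b with CD46 as cofactor, and it was not detectable at this depth. It had 0 and 0 counts in libraries labelled CPT2 KO, which allows up to 0.148 and 0.181 CPM (3 counts per library), and 1 and 0 counts in libraries labelled WT. CFI shares 1562 exon bases with AC126283.2, listed at 0 counts in all 4 libraries. No fold change is given for it.

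CD46, CD55 and CD59 together stood at 47.8 and 39.5 CPM per kilobase in libraries labelled CPT2 KO and 48.8 and 39.8 in libraries labelled WT, out of 63.6 and 57.1 in libraries labelled CPT2 KO and 72.4 and 60.9 in libraries labelled WT for all 9 genes. CD46, membrane cofactor protein, had 348 and 270 CPM in libraries labelled CPT2 KO and 351 and 276 CPM in libraries labelled WT. Replicate 1 was the higher in each group, by 1.29-fold labelled CPT2 KO and 1.27-fold labelled WT, and the groups overlapped (log2 fold change -0.021, SE 0.17). CD55, decay accelerating factor, which dismantles C3 and C5 convertases, had 20.4 and 24.0 CPM in libraries labelled CPT2 KO and 19.5 and 22.3 CPM in libraries labelled WT. CD59, which blocks the membrane attack complex, had 45.9 and 47.7 CPM in libraries labelled CPT2 KO and 56.0 and 46.0 CPM in libraries labelled WT. Both overlapped between the groups, with log2 fold changes of 0.087 (SE 0.19) for CD55 and -0.12 (SE 0.16) for CD59. CD59 shares 629 exon bases with AL049629.2, listed at 0 counts in all libraries.

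Per length, CD46 took 83.7% and 78.3% of the summed level of the 3 membrane regulators in libraries labelled CPT2 KO and 82.4% and 79.6% in libraries labelled WT. CD46 ranked above 92.3% to 94.9% of tested genes over the 4 libraries, SERPING1 above 80.1% to 85.7%, CD59 above 55.7% to 60.2% and CD55 above 49.1% to 54.5%. The order of mean level per length was CD46, SERPING1, CD59, CD55, C3, C1R, C1S, C5 and CFI. Of neighbours in this order, C1R and C1S overlapped within each group, whereas CD46 was above SERPING1, SERPING1 above CD59 and CD59 above CD55 in all 4 libraries, the last by 1.11 to 1.61 times. C3 was below CD55 in 3 libraries and above it in replicate 1 labelled WT. The 5 regulators together stood at 18.7 and 14.6 times the 4 components in libraries labelled CPT2 KO and at 10.4 and 10.2 times in libraries labelled WT. C3 is among these components, so this ratio carries the C3 difference that chose the set. Nothing further is read from it.

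RefSeq promoters (GRCh38.p14) were found for 6 of the 9 genes, not for C3, C1S or SERPING1. The 250 bases before the RefSeq start are shown for CD46, the highest of the 9 genes, and for CFI, the lowest, with each CG dinucleotide in capitals.
CD46 (chr1:207751788-207752037, plus strand): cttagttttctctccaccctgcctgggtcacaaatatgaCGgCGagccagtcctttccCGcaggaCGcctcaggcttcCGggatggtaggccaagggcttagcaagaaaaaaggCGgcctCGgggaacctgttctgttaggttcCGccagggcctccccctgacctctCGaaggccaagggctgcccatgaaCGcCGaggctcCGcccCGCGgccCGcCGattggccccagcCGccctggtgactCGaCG
CFI (chr4:109802000-109802249, minus strand): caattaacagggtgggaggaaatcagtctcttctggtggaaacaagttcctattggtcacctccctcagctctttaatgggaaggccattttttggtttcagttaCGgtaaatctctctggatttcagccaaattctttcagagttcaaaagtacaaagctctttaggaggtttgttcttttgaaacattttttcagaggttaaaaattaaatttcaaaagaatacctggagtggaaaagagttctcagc
CD46 holds 19 CG dinucleotides in this window and CFI 1. C5 holds 28, CD55 and CD59 12 each and C1R 6, against a median of 16 over 17487 promoters with a gene in the table. Of promoters with at most 2 such dinucleotides, 19.2% belonged to genes that passed the count filter, against 79.9% of those with 10 to 19 and 89.5% of those with 20 or more. C5 was low, at a mean of 0.173 CPM per kilobase. Its RefSeq window (chr9:121074866-121075115, minus strand) lies upstream of the GENCODE 29 gene, which ends at 121050276, so its count of 28 may not describe the start in use. The CD55 window (chr1:207321428-207321677, plus strand) lies inside its GENCODE 29 gene, which starts at 207321376. Those of CFI, C1R and CD59 lie partly inside theirs, so their counts may not describe the start in use either.

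The rest of the complement system was mostly near 0 in these cells. Of 54 other complement genes listed, 14 were tested, and 40 fell below the filter with at most 16 counts in any library. C1QA, C1QB and C1QC, the recognition subunits upstream of C1r, had 0 counts in all libraries, as did C6, C8A, C8B and C9 of the membrane attack complex. C4A, which encodes the C4 cleaved by C1s, had 4 and 6 counts in libraries labelled CPT2 KO and 8 and 7 in libraries labelled WT. Its near-identical copy C4B had 0 and 0 counts in libraries labelled CPT2 KO and 0 and 8 in libraries labelled WT, and reads of the pair are uncertain. CFB, the partner of C3b in the alternative pathway convertase, had 1 and 1 counts in libraries labelled CPT2 KO and 0 and 1 in libraries labelled WT.

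Among the 14 tested, edgeR called 0 higher and 0 lower at the adjusted threshold, 4 had an unadjusted p under 0.05, and DESeq2 called 1, CLU. The median log2 fold change was 0.22, positive for 9 and negative for 5. CLU, clusterin, a secreted chaperone that holds back the membrane attack complex, had 121 and 111 CPM in libraries labelled CPT2 KO and 71.3 and 71.9 CPM in libraries labelled WT. The groups were apart by more than the spread of either, and the log2 fold change was 0.70 (SE 0.14, edgeR adjusted p = 0.0749). It was called with DESeq2 (adjusted p = 0.00587), and in edgeR with no low count filter (adjusted p = 0.0474) and with the replicate block (0.00712). The other alternatives that keep all libraries did not call it (adjusted p = 0.0643 with the edgeR legacy estimate to 0.0872 with edgeR on library size only). With each library left out in turn, its log2 fold change ran from 0.63 to 0.76. The other 3 below an unadjusted 0.05, named after their values were seen, were CR1, CR1L and SUSD4. No share over all tested genes stands beside the counts of unadjusted p under 0.05, here or in other lists. Nothing is read from those counts.

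CR1, the C3b receptor, had 2.57 and 2.47 CPM in libraries labelled CPT2 KO and 0.488 and 1.36 CPM in libraries labelled WT (log2 fold change 1.41, SE 0.49, edgeR adjusted p = 0.413), and it was called without replicate 2 labelled WT (log2 fold change 2.36, edgeR adjusted p = 0.0467). CR1L, its neighbour on chromosome 1, had 7.82 and 6.81 CPM in libraries labelled CPT2 KO and 4.93 and 4.22 CPM in libraries labelled WT (log2 fold change 0.68, SE 0.27, edgeR adjusted p = 0.496). CR1 and CR1L are close relatives, and each also overlaps an antisense gene, so their reads are uncertain. SUSD4, a membrane inhibitor with sushi domains, had 0.198 and 0.844 CPM in libraries labelled CPT2 KO and 1.95 and 1.21 CPM in libraries labelled WT (log2 fold change -1.66, SE 0.65, edgeR adjusted p = 0.481). These 3 did not pass the adjusted threshold.

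By level per length, the leading tested genes of each role did not pass either. C1QBP, a mitochondrial protein that can bind C1q, stood at 0.32 on the log2 fold change scale (edgeR adjusted p = 0.569), with exon bases shared with RPAIN, DHX33 and AC004148.2. CR2, the receptor for C3d, had -0.36 (0.707), C1RL, a relative of C1r, had -0.30 (0.710), and MASP2, a lectin pathway protease, had 0.045 (0.981). CSMD2 of the sushi family had -0.17 (0.773), and CFHR3, a gene of the soluble regulators, had -0.97 (0.637) at 17 and 7 counts in libraries labelled CPT2 KO and 29 and 21 in those labelled WT.

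**Figure D4:**
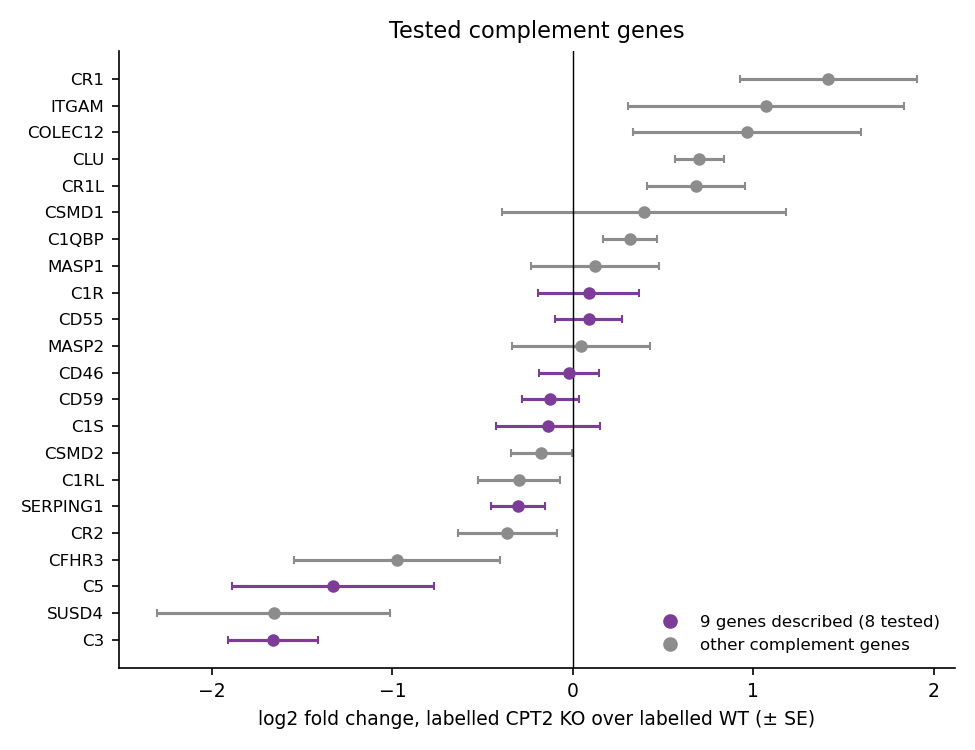
Log2 fold change (± SE) of CPT2 KO over WT libraries by label for the 22 tested complement genes, purple for the 8 of the set and grey for 14 others. C3 and SUSD4 lie lowest at -1.66, CR1 highest at 1.41, and CLU at 0.70 has the smallest SE of the genes above 0.5.

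CD55 and CD59 are held on the membrane by a GPI anchor. Of 29 genes that make or attach this anchor, 28 were tested, edgeR and DESeq2 called 0 of them, 0 had an unadjusted p under 0.05, and the median log2 fold change was -0.0024, with 14 positive and 14 negative. DPM1, a subunit of the mannose donor synthase, had 78.6 and 83.0 CPM in libraries labelled CPT2 KO and 58.4 and 71.8 CPM in libraries labelled WT. GPAA1, of the transamidase that attaches the anchor, had 38.6 and 40.9 CPM in libraries labelled CPT2 KO and 41.1 and 42.1 CPM in libraries labelled WT. Both were apart, in opposite directions, and neither passed the edgeR test (log2 fold changes 0.31 and -0.066, adjusted p = 0.583 and 0.923). C3 and C5 belong to the alpha-2-macroglobulin family, of which 3 of 7 further members were tested, edgeR and DESeq2 called 0, and 1 had an unadjusted p under 0.05. A2ML1, a protease inhibitor, had 13.5 and 11.5 CPM in libraries labelled CPT2 KO and 22.4 and 13.0 CPM in libraries labelled WT (log2 fold change -0.49, edgeR adjusted p = 0.614). CPAMD8, a relative with a Kazal domain, had 12.6 and 11.9 CPM in libraries labelled CPT2 KO and 18.6 and 15.9 CPM in libraries labelled WT (log2 fold change -0.50, edgeR adjusted p = 0.517). CPAMD8 was apart and lower, A2ML1 overlapped between the groups, and neither passed the test.

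Factors and receptors known to act on C3 transcription numbered 23, and edgeR called 0 of the 22 tested, 1 had an unadjusted p under 0.05 and DESeq2 called 1, IL6R (median log2 fold change -0.023, 11 positive and 11 negative). STAT3, which carries interleukin signals, had 144 and 117 CPM in libraries labelled CPT2 KO and 151 and 141 CPM in libraries labelled WT, which overlapped (log2 fold change -0.16, edgeR adjusted p = 0.753). Of 22 NF-kB and interferon response genes in the table, 20 were tested, edgeR called 0, 2 had an unadjusted p under 0.05 and DESeq2 called 1, ICAM1 (median 0.14, 14 positive and 6 negative). IFITM1, an interferon-induced membrane protein that shares exons with IFITM2, had 249 and 208 CPM in libraries labelled CPT2 KO and 268 and 165 CPM in libraries labelled WT (log2 fold change 0.078, edgeR adjusted p = 0.942). Acute phase genes were almost silent, with 1 of 14 tested, CP (log2 fold change 0.82, edgeR adjusted p = 0.646), whose exons overlap HPS3.

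The genes beside C3 on chromosome 19 gave 0 calls in edgeR and DESeq2 among 4 tested of 9 listed, and 1 unadjusted p under 0.05, with a median log2 fold change of 0.047. TRIP10, an adaptor of the actin cytoskeleton, had 63.6 and 64.2 CPM in libraries labelled CPT2 KO and 56.0 and 62.7 CPM in libraries labelled WT. GPR108, a Golgi membrane protein, had 29.4 and 26.1 CPM in libraries labelled CPT2 KO and 29.4 and 26.6 CPM in libraries labelled WT. Their log2 fold changes were 0.11 (edgeR adjusted p = 0.848) and -0.012 (0.989).

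Among 11767 tested genes with a mean of at least 5 CPM, the 5 with the profile nearest to that of C3 over the 4 libraries were found by the root mean square difference of log2(CPM + 0.5) centred on each gene's mean. Of these, 4 are given here, HOXC4 (0.13), a homeobox factor, SOX3 (0.21), a factor of neural progenitors, SEMA6D (0.22), a semaphorin, and DUSP4 (0.24), a phosphatase of MAP kinases. The median difference from C3 was 0.83. HOXC4 had 3.02 and 3.49 CPM in libraries labelled CPT2 KO and 12.3 and 9.13 CPM in libraries labelled WT, apart in the same direction as C3. HOXC4 shares exons with HOXC5 and HOXC6, so its reads are uncertain. Of the other tested members, C5 was nearest at 0.45, with 90 genes nearer, and SERPING1 followed at 0.67 with 1330. The likeness rests on 4 libraries and was found by search, so it is a description.

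**Figure D5:**
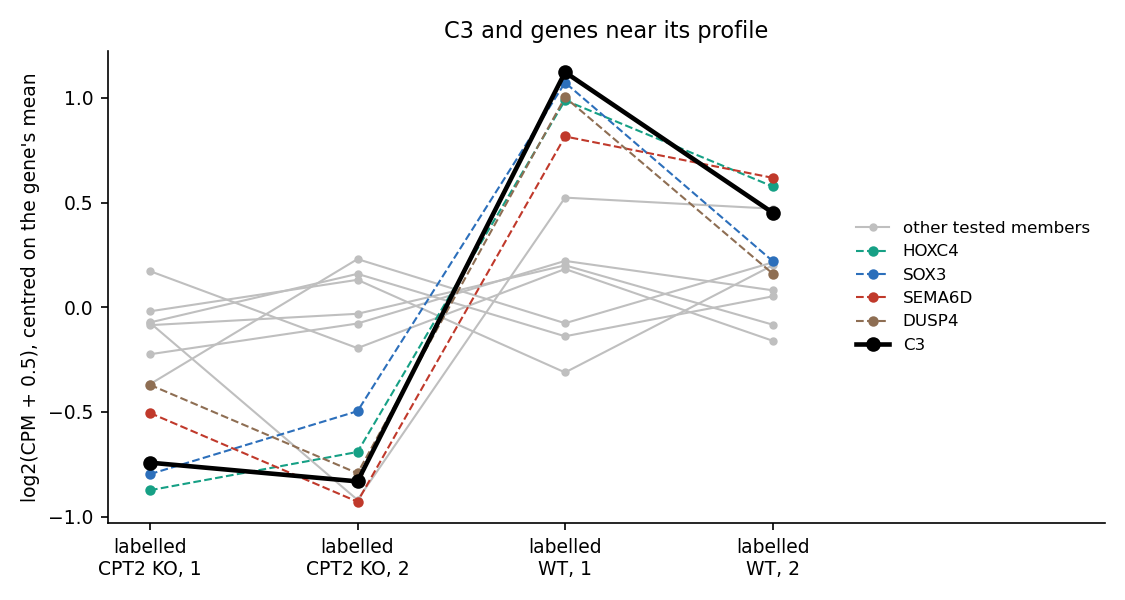
Centred log2(CPM + 0.5) of C3 (black), 4 of the 5 genes nearest to it (dashed) and the other 7 tested members (grey) in the libraries labelled CPT2 KO (left) and WT (right). C3 is at -0.74 and -0.83 in the libraries labelled CPT2 KO and at 1.12 and 0.45 in those labelled WT, and of the grey lines that of C5 comes nearest, at -0.074 and -0.92 in the libraries labelled CPT2 KO.

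Markers of hepatocytes and macrophages, 2 of the cell types known for C3, were near 0. In each of the hepatocyte and macrophage lists 1 gene was tested, edgeR and DESeq2 called 0, and 0 had an unadjusted p under 0.05. Hepatocyte and yolk sac markers summed to 2.28 and 1.45 CPM over 10 genes in libraries labelled CPT2 KO and 1.84 and 2.04 CPM in libraries labelled WT, with APOA1 and TTR at 0 counts throughout. Macrophage and blood markers summed to 1.93 and 1.99 CPM over 9 genes in libraries labelled CPT2 KO and 1.46 and 2.86 CPM in libraries labelled WT, with CD14 at 0. Of 8 definitive endoderm markers 5 were tested, edgeR called 0, 3 had an unadjusted p under 0.05, DESeq2 called 2 (CER1 and GATA4), and all 5 had a positive log2 fold change. The 8 summed to 157 and 26.7 CPM in libraries labelled CPT2 KO and 13.1 and 9.13 CPM in libraries labelled WT. CER1, a secreted Nodal antagonist, had 2509 and 185 counts in libraries labelled CPT2 KO and 3 and 0 in libraries labelled WT, and it gave 124 of the 157 CPM in replicate 1 labelled CPT2 KO. HHEX overlapped, with 10.5 and 10.2 CPM in libraries labelled CPT2 KO and 10.7 and 6.504 CPM in libraries labelled WT. FOXA1, below the filter, went the other way with 3 and 2 counts in libraries labelled CPT2 KO and 8 and 19 in libraries labelled WT. SOX17 had 46 and 7 counts and GATA6 74 and 7 in libraries labelled CPT2 KO, and both had 0 counts in both libraries labelled WT. FOXA2 had 152 and 10 counts in libraries labelled CPT2 KO and 1 and 2 in libraries labelled WT. GATA4 had 113 and 30 against 5 and 4 counts in the same order, and CXCR4 59 and 32 against 28 and 29. These genes and CER1 were apart and higher in the libraries labelled CPT2 KO. C3 was 9.01 and 8.44 CPM in the same libraries labelled CPT2 KO, and the part of endoderm cells in the C3 difference was not tested.

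Neuroectoderm markers summed to 99.7 and 114 CPM over 7 genes in libraries labelled CPT2 KO and 152 and 141 CPM in libraries labelled WT, and 2 of 5 tested, SOX1 and SIX6, fell in the libraries labelled CPT2 KO (edgeR adjusted p = 0.0164 and 0.0382). SOX1 had 15 and 5 counts in libraries labelled CPT2 KO and 82 and 130 in libraries labelled WT, and SIX6 had 2 and 1 against 24 and 67. Both calls were lost without replicate 1 or without replicate 2 labelled CPT2 KO. That of SIX6 was also lost with limma-voom on all libraries (adjusted p = 0.128). Of the 5 tested, 4 log2 fold changes were negative and 1 was positive, that of PAX6 (1.01), whose groups overlapped. LHX2, below the filter, had 3 and 4 counts in libraries labelled CPT2 KO and 0 and 0 in libraries labelled WT. ZIC1 gave most of the sums, with 78.3 and 94.2 CPM in libraries labelled CPT2 KO and 122 and 110 CPM in libraries labelled WT. Fibroblast markers summed to 222 and 201 CPM over 8 genes in libraries labelled CPT2 KO and 198 and 227 CPM in libraries labelled WT. Endothelial markers summed to 577 and 431 CPM over 7 genes in libraries labelled CPT2 KO and 384 and 353 CPM in libraries labelled WT, and amnion and trophoblast markers to 14.7 and 13.9 CPM over 8 genes in libraries labelled CPT2 KO against 12.2 and 15.1 CPM in those labelled WT. Of the fibroblast, endothelial, and amnion and trophoblast lists 4, 4 and 2 genes were tested, edgeR and DESeq2 called 0 in each, and 1 endothelial gene, KDR, had an unadjusted p under 0.05. The endothelial sums were apart and higher in libraries labelled CPT2 KO, but were almost all KDR, a VEGF receptor, with 575 and 427 CPM in libraries labelled CPT2 KO and 381 and 351 CPM in libraries labelled WT. Of the 4 tested endothelial genes, 3 had a positive log2 fold change and 1 a negative one. PECAM1 had 1 and 1 counts in libraries labelled CPT2 KO and 2 and 2 in libraries labelled WT. CDH5 had 4 and 5 against 0 and 0 counts in the same order, and TEK 15 and 34 against 11 and 12, both apart and higher. The fibroblast, amnion and trophoblast sums overlapped. FAP was at 0 among the fibroblast markers, as were CGA, CGB5 and HAND1 of the amnion and trophoblast list. The part of any of these cell types in the C3 difference was not tested.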

How the data were processed

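RNA-seq of 4 HUES8 libraries was analysed from 1 deposited table of raw counts per gene symbol, which the authors made with HISAT2 2.1.0 and featureCounts 1.6.4 on hg38 (GRCh38), per the submitters' processing notes. Not given in the sources used here are the annotation release, the strand setting and the treatment of reads with several alignments. Genes with low counts were removed with filterByExpr, leaving 17564 of 59050. The groups were compared with the robust quasi-likelihood F-test of edgeR 4.0.16 (R 4.3.3) after TMM scaling, with Benjamini-Hochberg adjustment over all tested genes and a threshold of 0.05. Each edgeR SE was derived from the log2 fold change and its F statistic. The SE of limma-voom was derived from its moderated t, and that of DESeq2 was the one it reports. The fit was also run on simulated counts in which no library stood apart, so that run does not vouch for these 4 libraries. Alternatives used DESeq2 1.42.0, limma-voom (limma 3.58.1), other scalings and filters, a replicate block and each library left out. The edgeR legacy estimate was added after seeing the data.

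The members and lists were chosen with earlier results of these data known. Genes named are the 9 members, CPT2, called genes and the 2 tested genes of highest level per length in each list other than cell type markers, the 5 profiles nearest to C3 and genes whose exons overlap a member. Marker genes, low complement genes and the genes of the closing observations were named after their values were seen. Some genes that this rule names are not reported here. Positions come from GENCODE 29 and promoters from RefSeq.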

Additional observations from a re-analysis of the deposited data

How the results depend on the processing

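With each library left out in turn, the C3 log2 fold change ran from -1.96 to -1.28, and its call was lost without either library labelled CPT2 KO. The lone library of a group is then assumed to vary like the others. The 9 planned or added alternatives that keep all libraries kept the C3 call. Over all genes, 63 higher and 10 lower calls became 101 and 23 with no low count filter, 149 and 46 with DESeq2, and 23 to 490 and 1 to 643 with each library left out. The replicate numbers share a number and no stated pairing (correlation of deviations 0.25), and the replicate block gave 233 and 140 calls, with C3 at -1.64 (edgeR adjusted p = 0.000628). Calls among other complement genes were 0 as reported, 1 (CLU) with no low count filter, with DESeq2 and with the replicate block, and 0 to 2 with each library left out. The 7 other tested members were called in 0 of 13 alternatives, and the sign changed in 2 for CD46, CD55 and C1S and in 1 for CD59 and C1R. At 0.0485 to 0.0603 CPM for each read, depth limits C5 and CFI most.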

Other observations

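Some genes of the lists had values that the comparisons above do not describe, and they were picked after their values were seen. ICAM1, an adhesion molecule induced by NF-kB, had 6.68 and 6.69 CPM in libraries labelled CPT2 KO and 20.5 and 10.7 CPM in libraries labelled WT. It was apart in the same direction as C3 and also highest in replicate 1 labelled WT (log2 fold change -1.22, SE 0.31, edgeR adjusted p = 0.202). Its list of NF-kB and interferon response genes had 14 positive and 6 negative log2 fold changes. NFKBIA of this list had 22.7 and 20.5 CPM in libraries labelled CPT2 KO and 15.4 and 16.3 CPM in libraries labelled WT. TNFAIP3 had 4.70 and 3.43 against 3.36 and 2.96 CPM in the same order. Both were apart and higher (log2 fold changes 0.45 and 0.38, edgeR adjusted p = 0.519 and 0.747). IL6R, the interleukin 6 receptor, had 18.4 and 14.5 CPM in libraries labelled CPT2 KO and 5.47 and 9.08 CPM in libraries labelled WT (log2 fold change 1.17, SE 0.27, edgeR adjusted p = 0.144). TAP1, the peptide transporter of antigen presentation, had 10.3 and 8.26 CPM in libraries labelled CPT2 KO and 7.05 and 5.48 CPM in libraries labelled WT (log2 fold change 0.58, SE 0.26, edgeR adjusted p = 0.552). VAV1, a signalling gene beside C3 on chromosome 19, had 17 and 26 counts in libraries labelled CPT2 KO and 5 and 1 in libraries labelled WT (log2 fold change 2.88, SE 0.83, edgeR adjusted p = 0.270). None of ICAM1, IL6R, TAP1 and VAV1 passed the adjusted threshold in edgeR with all libraries and no replicate block. ICAM1 and IL6R were each called in 3 of 13 alternatives. These were DESeq2 (adjusted p = 0.0322 for ICAM1 and 0.0233 for IL6R), edgeR with the replicate block (0.0305 and 0.0339), and edgeR without replicate 2 labelled WT (log2 fold change -1.62, adjusted p = 3.67e-05 for ICAM1, and 1.59, 0.000423 for IL6R). When replicate 1 labelled WT was left out, ICAM1 had -0.68 on this scale (edgeR adjusted p = 0.677) and IL6R 0.86 (0.234).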
